A study of Mus musculus with 29 samples.

Results

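The 44 genes described here encode the synaptic vesicle and its release machinery, and were taken by gene symbol from the 36172 rows of the deposited table. Rims1 has 2 rows in it (chr1:22288422-22432843 and chr1:22468191-22805724, mm10), so the 44 genes stand on 45 rows, and counts of genes below are counts of these rows. The question was how far a ribosome pulldown from astrocytes removed these neuronal transcripts, and how that compared with a pulldown from microglia. Translating ribosome affinity purification (TRAP) had been performed on brain homogenate of 2 mouse lines that carry the NuTRAP allele, which makes EGFP-tagged ribosomal protein L10a after cre recombination. Aldh1l1-cre/ERT2+; NuTRAP+ mice (Aldh1l1-NuTRAP) carry a tamoxifen-inducible cre driven from the astrocyte gene Aldh1l1, and Cx3cr1-cre/ERT2+; NuTRAP+ mice (Cx3cr1-NuTRAP) the same from the microglial gene Cx3cr1. The study describes its mice as males and females of about 3 months, and all received tamoxifen on 5 consecutive days. It describes a longer wait after tamoxifen for Cx3cr1-NuTRAP than for Aldh1l1-NuTRAP brains, the latter given for cytometry and staining. The negative fraction (RNA left unbound) and the positive fraction (RNA on the anti-GFP beads) came from 3 Aldh1l1-NuTRAP mice, numbered 290, 293 and 294. From the Cx3cr1-NuTRAP line there were 6 mice with input (the cleared homogenate), negative and positive fractions, and conventionally isolated whole-tissue RNA of 5 of them. Fractions that share a number came from 1 mouse, and mice are the replicates. The 2 lines are different mice, so the cre driver, any difference in the wait after tamoxifen and anything else that differed between them cannot be told apart.

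The shallowest library was the whole tissue of mouse 210 with 4260949 counts, the deepest held 26857866, and the lowest in the Aldh1l1-NuTRAP line was 8782235. Every member row passed the filter in every comparison, and the lowest rounded count of any member row in any library was 36. The 12 astrocyte markers were all higher in the Aldh1l1-NuTRAP positive fraction (median log2 fold change 3.04 over the negative fraction), and the 12 microglia markers were all higher in the Cx3cr1-NuTRAP positive fraction (median 3.65). Several libraries stood apart from their groups. Mouse 290 had the lowest mean correlation with the libraries of its own group in both fractions of its line (0.9492 and 0.9422, against 0.9642 to 0.9727 for mice 293 and 294). The negative fraction of mouse 155 was at 0.9681 where the other 5 were at 0.9882 or above, and the whole tissue of mouse 210 was at 0.9663 where the other 4 were at 0.9833 or above. The input of mouse 155 was also the lowest of its group, at 0.9872 where the other 5 were at 0.9914 or above. Counts of called members that rest on these libraries, or the calls that changed, are also given without them.

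Neurotransmitter release is carried out by SNARE proteins. Synaptobrevin (Vamp) on the vesicle zips together with syntaxin (Stx) and SNAP-25 on the plasma membrane, while Munc13 (Unc13), RIM (Rims), complexin (Cplx) and the active zone scaffolds Bassoon and Piccolo dock and prime the vesicle, and NSF with its SNAP adaptors (Napa, Napb) takes spent SNARE complexes apart. Most of these proteins are made in neurons, whereas Snap23, Vamp3, Stx4a, Sypl and Napa are paralogues used for exocytosis in many cell types. These 5 rows were set apart by hand as broadly expressed, with earlier results known. The other 40 are called rows of neuronal character below, though not all of them are confined to neurons. In nonneuronal cells many neuronal genes are held silent by the repressor REST, which binds a DNA element called RE1.

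RefSeq promoter windows (GRCm38.p6, the assembly also called mm10, from 250 bases before to 50 after a transcription start) existed for 37 of the 44 genes, as 48 windows. Snap25, Vamp2, Vamp3, Rims2, Syn3, Doc2a and Doc2b had none in the table used. The windows were searched on both strands for the RE1 core AGCACCNNGGACAG, with N any base and at most 1 mismatch over its fixed letters. A match stood in 3 of the 48 windows (6.25%), those of Syn1, Rph3a and Slc17a6, and in 116 of all 32851 windows (0.353%). Without a mismatch it stood in 0 of the 48 and in 17 of all windows, and with up to 2 mismatches in 3 of the 48 (6.25%) and in 1464 of all windows (4.46%), so the distance between members and all windows depended on the mismatches allowed. The matches are printed below, each on the strand of its gene, 5′ to 3′, with the matched stretch in capitals. All 3 of these genes fell in the astrocyte pulldown described further on, but so did 39 of all 45 member rows. The fall therefore does not set them apart. In Syn1 the gene's own strand matched, and in Rph3a and Slc17a6 the opposite strand.
Syn1 (chrX:20921114-20921167, minus strand): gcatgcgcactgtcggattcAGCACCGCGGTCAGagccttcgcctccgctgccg
Rph3a (chr5:121009597-121009650, minus strand): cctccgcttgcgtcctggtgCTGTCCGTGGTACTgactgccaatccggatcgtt
Slc17a6 (chr7:51621856-51621879, plus strand): agcttcctCTGTCCGTGGTCCTga
The Syn1 match began 229 bases before the start, the Rph3a match 92 bases before it, and the Slc17a6 match 34 bases after it. A match is a description of letters and not a test of binding. In the Cx3cr1-NuTRAP positive over negative fraction Syn1 was at -0.15, Rph3a at -0.03 and Slc17a6 at -0.22 on the log2 scale, none of them called. In the Aldh1l1-NuTRAP positive fraction the log2 fold changes of the 3 genes were -1.53 ± 0.32 (SE, adjusted p = 0.00611), -1.33 ± 0.38 (SE, adjusted p = 0.0217) and -1.76 ± 0.16 (SE, adjusted p = 0.000163), inside the range of the members without a match.

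Nearly the whole release machinery was lower in the astrocyte pulldown. In Aldh1l1-NuTRAP mice 39 of the 45 rows were lower in the positive than in the negative fraction and 2 were higher (edgeR quasi-likelihood test, Benjamini-Hochberg adjusted p under 0.05), where 24.8% of all 13319 genes tested were lower and 26.8% higher. The median log2 fold change of the members was -1.36, against 0.04 over all genes tested, and 40 rows were lower in all 3 mice on values scaled by TMM (trimmed mean of M values, edgeR's scaling between libraries). The 2 that rose were Vamp3 and Snap23, both of the broadly expressed group. The members without a call were Sypl, Stx4a, Sv2c and Rims3. Both fractions of a mouse came from the same homogenate, so the values compare bead-bound with unbound RNA and not levels within neurons. Which cells the members' RNA in the positive fraction came from was not tested.

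Few of the same genes were called in the microglial pulldown. In Cx3cr1-NuTRAP mice 6 of the 45 rows were lower and 2 higher, where 11.6% of all 13776 genes tested were lower and 12.8% higher. The median log2 fold change was -0.15, against -0.02 over all genes tested. Sv2b, both rows of Rims1, Rims2, Sypl and Stxbp5 fell, and Vamp3 and Cplx2 rose. With the mouse as a block 4 rows were lower (Stxbp5 and Rims2 lost their calls) and 0 higher, with 7.98% and 9.28% of all genes, and the 6-mouse calls were sensitive to single mice. Without mouse 155, whose negative fraction stood apart, 8 rows were lower and 2 higher, with 15.7% and 15% of all genes. Without mouse 192 only 1 row was lower, and without mouse 194 or mouse 277 3 rows were, where the share of all genes called lower also fell, to 4.12%, 6.29% and 6.26%. Leaving out any of mice 192, 194, 209, 210 and 277 ended both calls of higher rows. DESeq2 called 10 rows lower and 2 higher, with 14.3% and 15.1% of all genes.

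The Aldh1l1-NuTRAP count also rested in part on single mice. It was 40 lower rows without mouse 290, 28 without mouse 293 and 25 without mouse 294, while the share of all genes called lower was 34.3%, 12.6% and 12%. Snap23 lost its call without mouse 293 or mouse 294. With the mouse as a block 40 rows were lower, Rims3 among them, and 4 were higher, with Stx4a (log2 fold change 0.32, adjusted p = 0.0224) and Sv2c (0.56, adjusted p = 0.00683) added to Vamp3 and Snap23. Calls over all genes rose under the block too, to 33.8% lower and 37% higher. Levels are given below as CPM, a gene's counts scaled to a common library total, while the fold changes use TMM scaling. The astrocyte markers summed to 19109 to 29075 CPM in the 3 positive fractions and to 3706 to 5120 CPM in the negative fractions. Scaling by total counts alone set the median of all genes at -0.31 in place of 0.04 and that of the members at -1.71, and changed the split over all genes from 3569 higher and 3299 lower to 2436 and 4824. No called member changed direction under it.

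**Figure D1:**
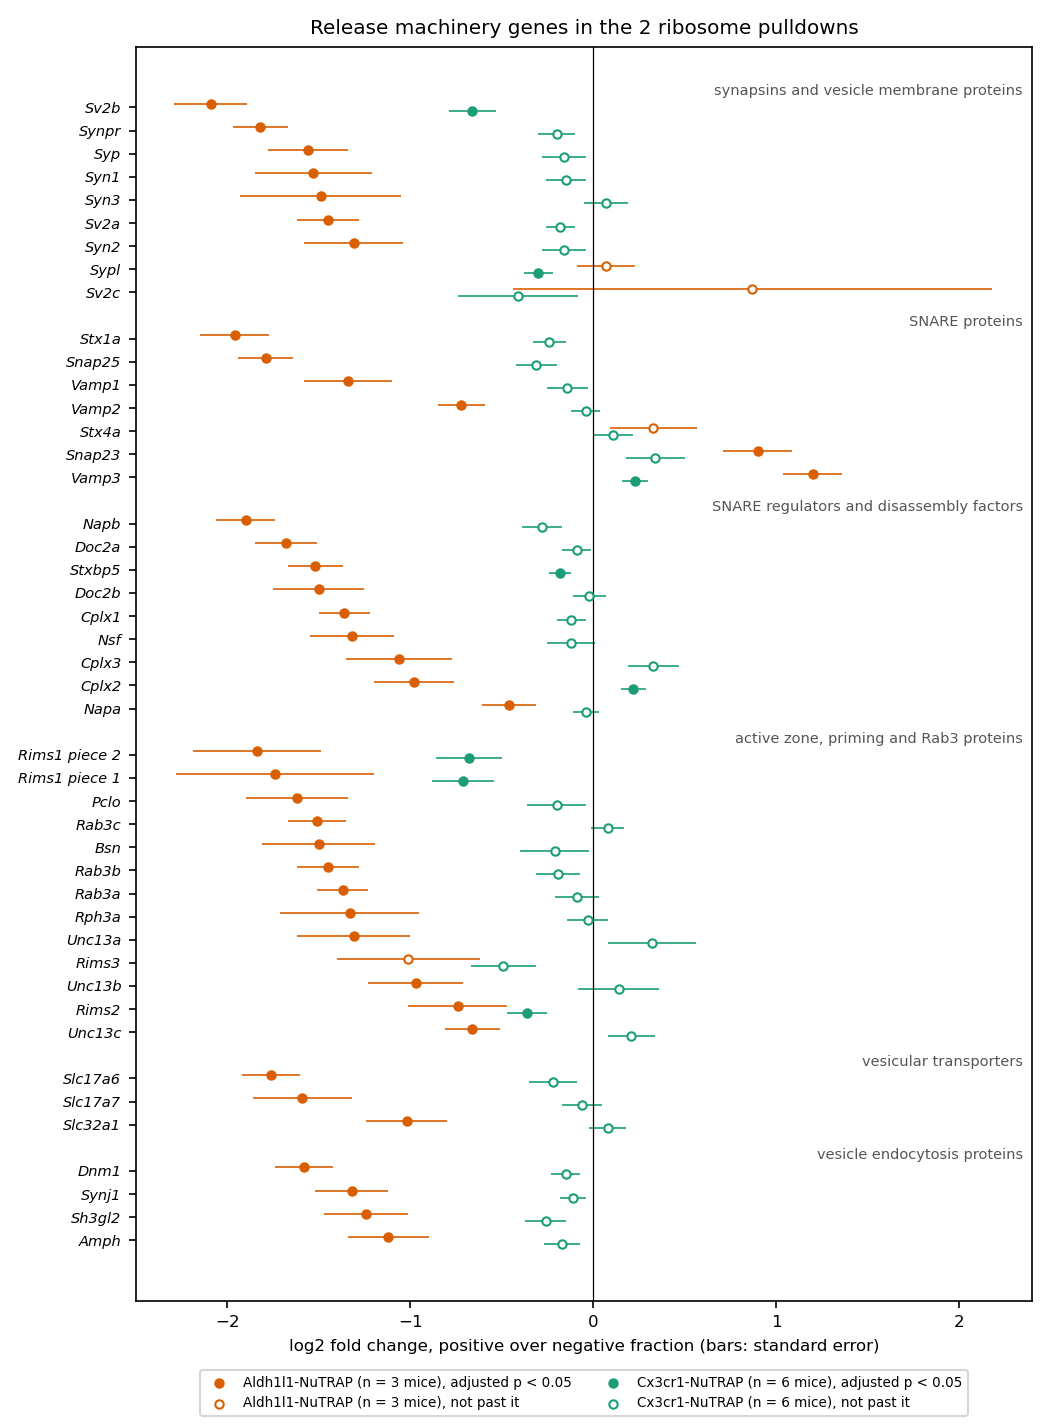
Log2 fold change of each member row in the positive over the negative fraction (x axis; bars are standard errors), grouped by role on the y axis, in Aldh1l1-NuTRAP mice (orange, n = 3) and Cx3cr1-NuTRAP mice (green, n = 6), with points filled where the adjusted p was under 0.05. The orange points lie below 0 for 40 of 45 rows with a median of -1.36, and the green points gather near 0 with a median of -0.15.

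Among the synapsins and vesicle membrane proteins, 7 of 9 rows fell in Aldh1l1-NuTRAP mice and 2 had no call. Syp (chrX:7638580-7653256, plus strand), which encodes synaptophysin, an abundant protein of the vesicle membrane, had the highest input CPM of this group. Syp stood at 2516, 1808 and 1472 CPM in the negative fractions of mice 290, 293 and 294 and 533, 522 and 496 CPM in their positive fractions. Each positive fraction was below each negative fraction, with a log2 fold change of -1.56 ± 0.22 (SE, adjusted p = 0.00107). In Cx3cr1-NuTRAP mice Syp was at 1477 to 1981 CPM (median 1608) in the 6 negative fractions and 1019 to 1735 CPM (median 1543) in the 6 positive fractions. These ranges overlapped, and the log2 fold change was -0.16 ± 0.12 (SE, adjusted p = 0.377). Synpr (chr14:13284780-13615469, plus strand), a relative of synaptophysin named synaptoporin, fell as well. It was at 128, 129 and 137 CPM in the negative fractions of mice 290, 293 and 294 and 26, 29.2 and 32.5 CPM in their positive fractions, with a log2 fold change of -1.82 ± 0.15 (SE, adjusted p = 9.97e-05). The microglial line had Synpr at 113 to 119 CPM (median 116) in the 6 negative fractions and 74.7 to 124 CPM (median 99.3) in the 6 positive fractions, overlapping ranges with a log2 fold change of -0.20 ± 0.10 (SE, adjusted p = 0.154). Sypl (chr12:32953945-32979502, plus strand), the synaptophysin-like protein of many tissues, behaved otherwise. Its levels were 63.5, 54 and 50.1 CPM in the negative fractions of mice 290, 293 and 294 and 46.9, 45.2 and 46.8 CPM in their positive fractions. On the CPM scale the positive fractions were lower in every mouse, but on the TMM scale the log2 fold change was 0.07 ± 0.16 (SE, adjusted p = 0.712), higher in 2 of 3 mice, and under total counts it was -0.27, so no direction is given for it in this line. In the Cx3cr1-NuTRAP line Sypl was at 52.9 to 60.1 CPM (median 57.2) in the 6 negative fractions and 36.3 to 52 CPM (median 46.9) in the 6 positive fractions, ranges that did not overlap, with a log2 fold change of -0.30 ± 0.08 (SE, adjusted p = 0.0127) that was lower in 6 of 6 mice and lost its call without mouse 192 (adjusted p = 0.0549).

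The synapsins, which tether vesicles to each other and to actin, fell together in the astrocyte pulldown. Syn1, Syn2 and Syn3 had log2 fold changes of -1.53, -1.31 and -1.49, and in the microglial pulldown of -0.15, -0.16 and 0.07, none of the latter past the threshold. Without mouse 294 all 3 astrocyte calls were lost (adjusted p = 0.0536, 0.0544 and 0.137). The SV2 glycoproteins, vesicle membrane proteins that also bind synaptotagmin, parted. Sv2b had the most negative value of all members in the astrocyte line, -2.09 ± 0.20 (SE, adjusted p = 0.000198), and it fell in the microglial line as well, by 0.66 on the log2 scale (adjusted p = 0.00181, lower in 6 of 6 mice). Sv2a was at -1.45 ± 0.17 (SE, adjusted p = 0.000435) in the astrocyte line and -0.18 ± 0.08 (SE, adjusted p = 0.122) in the microglial line. Sv2c, singled out after its values were seen, was at 250, 23.7 and 26.6 CPM in the negative fractions of mice 290, 293 and 294 and 380, 28.5 and 22.1 CPM in their positive fractions. Mouse 290 stood far above the other mice in both fractions, and the log2 fold change of 0.87 ± 1.31 (SE, adjusted p = 0.601) had the largest SE of all members. The negative fraction of mouse 155 was also apart for this gene, at 82.9 CPM where the other 5 were between 21.1 and 30.1.

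Of the 7 SNARE genes 4 fell and 2 rose in the astrocyte pulldown. Snap25 (chr2:136713450-136782428, plus strand), the plasma membrane SNARE of nerve terminals, had the highest input CPM of any member. It was at 2348, 2708 and 2919 CPM in the negative fractions of mice 290, 293 and 294 and 520, 627 and 673 CPM in their positive fractions. The groups were far apart, with a log2 fold change of -1.79 ± 0.15 (SE, adjusted p = 0.00012). Cx3cr1-NuTRAP mice had Snap25 at 2800 to 3038 CPM (median 2935) in the 6 negative fractions and 1728 to 2928 CPM (median 2338) in the 6 positive fractions, lower in the positive fraction in 6 of 6 mice but not past the threshold (log2 fold change -0.31 ± 0.11 SE, adjusted p = 0.0557). There Snap25 was called lower by DESeq2 (adjusted p = 0.0257), under other size factors (0.0496), in a joint fit of all 6 groups (0.0157) and without mouse 209 (0.0346). Snap23 (chr2:120567671-120600722, plus strand), its paralogue in most other cells, moved the opposite way. It was at 11.1, 15.8 and 13.9 CPM in the negative fractions of mice 290, 293 and 294 and 17.2, 20.5 and 22.5 CPM in their positive fractions, higher in the positive fraction of every mouse (log2 fold change 0.90 ± 0.19 SE, adjusted p = 0.00598). In the microglial line Snap23 was at 12.2 to 16.5 CPM (median 15.4) in the 6 negative fractions and 13.5 to 26.7 CPM (median 17.2) in the 6 positive fractions, with overlapping ranges and 0.34 ± 0.16 (SE, adjusted p = 0.13).

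Vamp2 (chr11:69088528-69092381, plus strand), the synaptobrevin of most central synapses, had the value nearest 0 among the 4 neuronal SNARE genes. Its values were 1412, 1328 and 1331 CPM in the negative fractions of mice 290, 293 and 294 and 642, 674 and 624 CPM in their positive fractions, a log2 fold change of -0.72 ± 0.13 (SE, adjusted p = 0.00285). The ranges did not overlap, and without mouse 293 or mouse 294 the adjusted p was 0.0563 or 0.0718. For the microglial line Vamp2 was at 1150 to 1235 CPM (median 1196) in the 6 negative fractions and 957 to 1320 CPM (median 1175) in the 6 positive fractions, 3 mice lower and 3 higher (log2 fold change -0.04 ± 0.08 SE, adjusted p = 0.784). Vamp3 (chr4:151047305-151057953, minus strand), also called cellubrevin, was the one member that rose in both pulldowns. It stood at 51, 51.4 and 45 CPM in the negative fractions of mice 290, 293 and 294 and 96.7, 79.2 and 89.8 CPM in their positive fractions, a log2 fold change of 1.20 ± 0.16 (SE, adjusted p = 0.00071). In the microglial pulldown it rose from 37.4 to 45.7 CPM (median 41.7) to 45.2 to 50.1 CPM (median 47.8), by 0.23 ± 0.07 (SE, adjusted p = 0.0292), higher in 6 of 6 mice. The microglial call was lost with the mouse as a block (adjusted p = 0.0686) and without any of mice 192, 194, 209, 210 and 277 (adjusted p from 0.0509 to 0.119).

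Stx1a (chr5:135023572-135051099, plus strand), the presynaptic plasma membrane syntaxin, was at 203, 254 and 230 CPM in the negative fractions of mice 290, 293 and 294 and 37.1, 55.2 and 46.5 CPM in their positive fractions. All positive values were below all negative values, with a log2 fold change of -1.96 ± 0.19 (SE, adjusted p = 0.000195). In Cx3cr1-NuTRAP mice it was at 157 to 212 CPM (median 178) in the 6 negative fractions and 137 to 175 CPM (median 146) in the 6 positive fractions, lower in 6 of 6 mice (log2 fold change -0.24 ± 0.09 SE, adjusted p = 0.0547). There Stx1a was called lower by DESeq2 (adjusted p = 0.0312) and under total counts (0.0366). Stx4a (chr7:127841808-127848965, plus strand), a syntaxin of the plasma membrane in many cell types, was at 95.9, 83.3 and 63 CPM in the negative fractions of mice 290, 293 and 294 and 101, 72.2 and 65.6 CPM in their positive fractions. These ranges overlapped, and the log2 fold change was 0.33 ± 0.24 (SE, adjusted p = 0.294). The microglial line had Stx4a at 70.9 to 108 CPM (median 75.5) in the 6 negative fractions and 75.4 to 96.5 CPM (median 86.3) in the 6 positive fractions, again overlapping (log2 fold change 0.11 ± 0.11 SE, adjusted p = 0.496). The remaining SNARE, Vamp1, was at -1.34 ± 0.24 (SE, adjusted p = 0.00323) in the astrocyte line and at -0.14 ± 0.11 (SE, adjusted p = 0.411) in the microglial line.

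**Figure D2:**
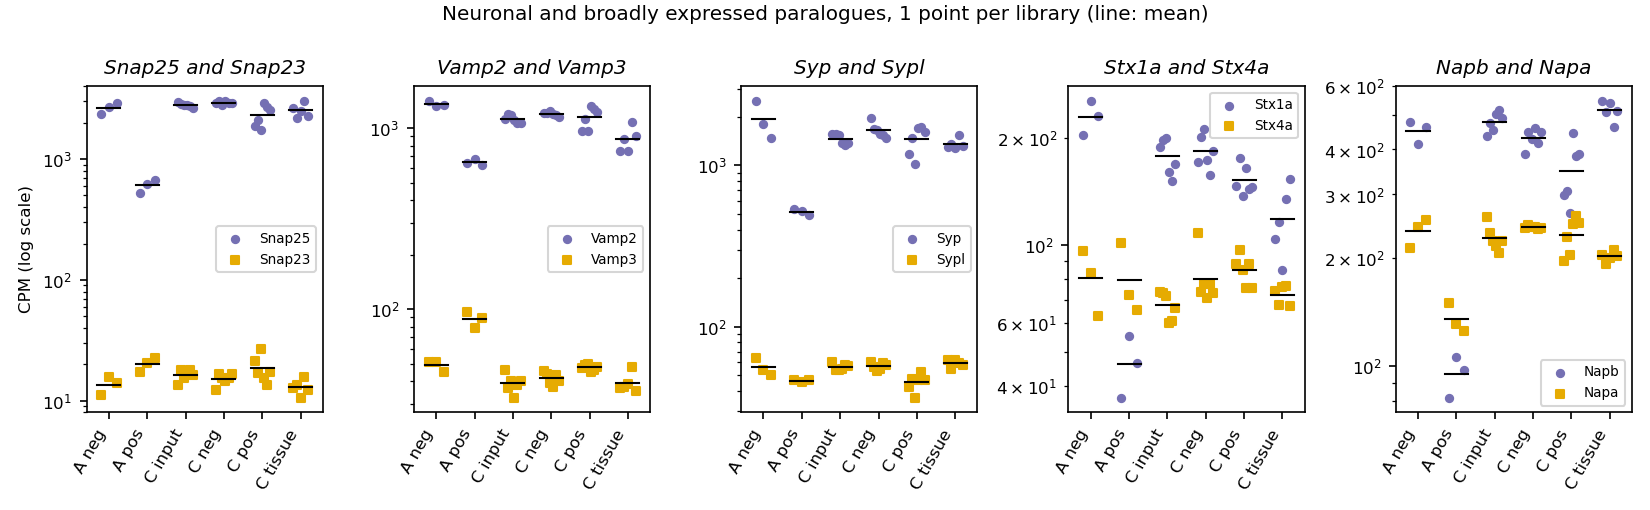
CPM of the neuronal member (purple circles) and its broadly expressed paralogue (yellow squares) of 5 pairs in every library of the 6 groups, on log axes that differ between panels, with a line at each group mean. In the 3 Aldh1l1-NuTRAP positive fractions (A pos) the neuronal member drops in every panel, Snap25 to 520 to 673 CPM, while Vamp3 and Snap23 rise.

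Set against each other within a library, the paralogues changed balance in the astrocyte pulldown. Snap23 was 0.51% ± 0.0624 (SD, n = 3) of Snap25 in the negative fractions and 3.3% ± 0.0373 in the positive fractions. Vamp3 went from 3.62% ± 0.246 to 13.7% ± 1.76 of Vamp2, and Sypl from 2.97% ± 0.438 to 8.97% ± 0.408 of Syp. Stx4a went from 35.8% ± 10.3 of Stx1a to 181% ± 78.6, so that it exceeded Stx1a in each of the 3 positive fractions, and Napa from 52.9% ± 7.26 of Napb to 145% ± 32.9. Such ratios within 1 library do not depend on how libraries are scaled. For all 5 pairs the lowest positive value was above the highest negative value. In the 6 Cx3cr1-NuTRAP mice the positive fractions had 0.865% ± 0.407, 4.25% ± 0.715, 3.17% ± 0.343, 56.2% ± 6.4 and 67.5% ± 7.41 for the same pairs in that order, against 0.513% ± 0.0566, 3.48% ± 0.263, 3.47% ± 0.359, 44.4% ± 10.1 and 56.5% ± 3.28 in the negative fractions, and the ranges of every pair overlapped. Within mice, however, the Napa percentage was higher in the positive fraction of 6 of 6 mice, those of Snap23, Vamp3 and Stx4a in 5 of 6, and that of Sypl in 2 of 6. These are ratios of counts and not of molecules, since transcript lengths differ.

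All 9 regulators and disassembly factors fell in the astrocyte pulldown. Cplx2 (chr13:54371349-54383917, plus strand) encodes complexin, a clamp and helper of the assembled SNARE complex, and had the highest input CPM of this role. It was at 2268, 1756 and 1761 CPM in the negative fractions of mice 290, 293 and 294 and 973, 678 and 661 CPM in their positive fractions. The ranges did not overlap (log2 fold change -0.98 ± 0.22 SE, adjusted p = 0.00786), although without mouse 293 or mouse 294 the adjusted p was 0.0701 or 0.0697. The microglial pulldown had Cplx2 at 1590 to 1842 CPM (median 1632) in the 6 negative fractions and 1674 to 2059 CPM (median 1966) in the 6 positive fractions, higher in 5 of 6 mice (log2 fold change 0.22 ± 0.07 SE, adjusted p = 0.0472). This call was lost with the mouse as a block (adjusted p = 0.13) and without any of mice 192, 194, 209, 210 and 277 (adjusted p from 0.0537 to 0.169). Cplx3 (chr9:57599992-57606281, minus strand), a complexin known from ribbon synapses of the retina, was at 13.2, 19.8 and 15.4 CPM in the negative fractions of mice 290, 293 and 294 and 3.71, 7.47 and 7.04 CPM in their positive fractions. It fell by 1.06 on the log2 scale (SE 0.29, adjusted p = 0.0191), a call lost without mouse 293 (adjusted p = 0.0906) or mouse 294 (adjusted p = 0.082). In the other line Cplx3 was at 11.7 to 15.3 CPM (median 13.4) in the 6 negative fractions and 12.2 to 22.1 CPM (median 16.2) in the 6 positive fractions, higher in 4 of 6 mice by CPM and in 5 of 6 on TMM-scaled values, without passing the threshold (log2 fold change 0.33 ± 0.14 SE, adjusted p = 0.0996).

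Doc2a (chr7:126847553-126852705, plus strand), a high-affinity calcium sensor of spontaneous and asynchronous release, was at 38.1, 46.2 and 39.4 CPM in the negative fractions of mice 290, 293 and 294 and 10.8, 10.3 and 9.4 CPM in their positive fractions. The drop held in every mouse (log2 fold change -1.68 ± 0.17 SE, adjusted p = 0.000218). In Cx3cr1-NuTRAP mice it was at 29.5 to 35 CPM (median 33.8) in the 6 negative fractions and 27 to 35.2 CPM (median 30.6) in the 6 positive fractions, lower in 4 of 6 mice by CPM and in 3 of 6 on TMM-scaled values (log2 fold change -0.09 ± 0.08 SE, adjusted p = 0.483). Napb (chr2:148694657-148732420, minus strand), the brain form of the SNAP adaptor of NSF, was at 476, 413 and 462 CPM in the negative fractions of mice 290, 293 and 294 and 81.8, 106 and 97.7 CPM in their positive fractions. That was among the deepest falls of the list (log2 fold change -1.90 ± 0.16 SE, adjusted p = 0.000122). Its microglial values were 389 to 460 CPM (median 437) in the 6 negative fractions and 267 to 444 CPM (median 345) in the 6 positive fractions, lower in 6 of 6 mice (log2 fold change -0.28 ± 0.11 SE, adjusted p = 0.068). There Napb was called lower by DESeq2 (adjusted p = 0.0383), in a joint fit of all 6 groups (0.0257) and without mouse 209 (0.0339). Napa (chr7:16098643-16117975, plus strand), the adaptor of all tissues, was at 213, 243 and 255 CPM in the negative fractions of mice 290, 293 and 294 and 150, 131 and 125 CPM in their positive fractions. It had the smallest fall that passed the threshold (log2 fold change -0.46 ± 0.15 SE, adjusted p = 0.0395). The call was lost without mouse 293 (adjusted p = 0.296) or mouse 294 (adjusted p = 0.393), and with no filter on low counts (adjusted p = 0.102). For the microglial line it was at 241 to 247 CPM (median 242) in the 6 negative fractions and 196 to 262 CPM (median 239) in the 6 positive fractions, with 3 mice on either side (log2 fold change -0.04 ± 0.07 SE, adjusted p = 0.694). Cplx1, Doc2b, Nsf and Stxbp5 (tomosyn, an inhibitor of SNARE assembly) lay between -1.32 and -1.52 in the astrocyte line, and of these only Stxbp5 passed the threshold in the microglial line, at -0.18 ± 0.06 (SE, adjusted p = 0.0413), which was lost without any of mice 192, 194, 209, 210 and 277 (adjusted p from 0.0767 to 0.189).

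Of the 13 rows of active zone, priming and Rab3 proteins, 12 fell in the astrocyte pulldown. Rab3c (chr13:110054187-110280206, minus strand), a GTPase of the vesicle surface, had the highest input CPM of this role. It was at 722, 695 and 683 CPM in the negative fractions of mice 290, 293 and 294 and 205, 208 and 166 CPM in their positive fractions, groups well apart (log2 fold change -1.51 ± 0.16 SE, adjusted p = 0.000267). In Cx3cr1-NuTRAP mice it was at 609 to 789 CPM (median 635) in the 6 negative fractions and 578 to 791 CPM (median 681) in the 6 positive fractions, overlapping (log2 fold change 0.08 ± 0.09 SE, adjusted p = 0.559). Rab3b (chr4:108879070-108943324, plus strand), another Rab3 GTPase, was lower in the astrocyte pulldown as well. It was at 68.5, 71 and 68.1 CPM in the negative fractions of mice 290, 293 and 294 and 23.3, 19.4 and 17.2 CPM in their positive fractions (log2 fold change -1.45 ± 0.17 SE, adjusted p = 0.000452). The microglial line had 56.4 to 67.8 CPM (median 63.7) in the 6 negative fractions and 39.4 to 68.1 CPM (median 52.6) in the 6 positive fractions, 3 mice lower and 3 higher (log2 fold change -0.19 ± 0.12 SE, adjusted p = 0.276). Rab3a was at -1.37 and -0.09 in the 2 lines, and the Rab3 effector Rph3a (rabphilin) at -1.33 and -0.03. The astrocyte call of Rph3a was lost without mouse 293 (adjusted p = 0.0723) or mouse 294 (adjusted p = 0.0889).

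Unc13a (chr8:71626712-71671757, minus strand), which encodes Munc13-1, the main priming factor of glutamatergic synapses, was at 185, 347 and 315 CPM in the negative fractions of mice 290, 293 and 294 and 57, 107 and 104 CPM in their positive fractions. It fell in every mouse (log2 fold change -1.31 ± 0.31 SE, adjusted p = 0.00967), with adjusted p of 0.0552 and 0.0587 without mouse 293 or mouse 294. In the Cx3cr1-NuTRAP line it was at 179 to 326 CPM (median 291) in the 6 negative fractions and 194 to 513 CPM (median 295) in the 6 positive fractions (log2 fold change 0.32 ± 0.24 SE, adjusted p = 0.345). The 6 positive values were 488, 333, 513, 230, 194 and 257 CPM in mice 155, 192, 194, 209, 210 and 277, and 3 of them exceeded the negative fraction of the same mouse and 3 did not. The astrocyte calls of Unc13b and Unc13c were likewise lost without mouse 293 or mouse 294 (adjusted p from 0.0713 to 0.14). Unc13b and Unc13c also split 3 to 3, with the same mice 155, 192 and 194 on the high side. The 13 rows of this role had a median log2 ratio of 0.42 in mouse 155 and of -0.22 to -0.41 in the other 5 mice.

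The RIM scaffolds, which hold calcium channels and Munc13 at the release site, held 3 of the 6 rows called lower in the microglial line. The 2 rows of Rims1 were at -0.71 ± 0.17 (SE, adjusted p = 0.00842) and -0.68 ± 0.18 (SE, adjusted p = 0.015), Rims2 at -0.36 ± 0.11 (SE, adjusted p = 0.0286) and Rims3 at -0.49 ± 0.18 (SE, adjusted p = 0.0683), each lower in 5 of 6 mice, mouse 155 being the other. The first Rims1 row lost its call without mouse 192, the second without mouse 192, 194 or 277, and Rims2 without mouse 192, 194, 210 or 277 (adjusted p from 0.0614 to 0.141). In the astrocyte line the Rims1 rows were at -1.74 and -1.84, both called lower, while Rims2 (log2 fold change -0.74 ± 0.27 SE, adjusted p = 0.0499) was at the threshold and Rims3 (log2 fold change -1.01 ± 0.39 SE, adjusted p = 0.0649) missed it. The first Rims1 row lost its call without mouse 293 or mouse 294. Rims2 lost its call without mouse 293 or mouse 294 (adjusted p = 0.194 and 0.195) and with no filter on low counts (0.065). Bassoon (Bsn) and Piccolo (Pclo), the giant scaffolds of the active zone, had log2 fold changes of -1.50 and -1.62 in the astrocyte line, both called (Bsn at an adjusted p of 0.053 without mouse 293), and were at -0.21 ± 0.19 (SE, adjusted p = 0.448) and -0.20 ± 0.16 (SE, adjusted p = 0.406) in the microglial line. Without mouse 155, whose negative fraction stood apart, Bsn (-0.44, adjusted p = 0.0356) and Rims3 (-0.66, adjusted p = 0.000512) were called lower in the microglial line.

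All 3 vesicular transporters, which load vesicles and so mark the transmitter a terminal releases, fell in the astrocyte pulldown. Slc17a7 (chr7:45163921-45176139, plus strand), the glutamate transporter VGLUT1 of cortical and hippocampal neurons, had the highest input CPM of the 3. It was at 734, 1228 and 1245 CPM in the negative fractions of mice 290, 293 and 294 and 195, 311 and 331 CPM in their positive fractions. Mouse 290 was low in both fractions, and within each mouse the positive fraction was the lower one (log2 fold change -1.59 ± 0.27 SE, adjusted p = 0.0022). In Cx3cr1-NuTRAP mice Slc17a7 was at 703 to 1123 CPM (median 1035) in the 6 negative fractions and 852 to 1081 CPM (median 918) in the 6 positive fractions, 3 mice lower and 3 higher (log2 fold change -0.06 ± 0.11 SE, adjusted p = 0.712). VGLUT2 (Slc17a6), the glutamate transporter of thalamus and brainstem, was at -1.76 ± 0.16 (SE, adjusted p = 0.000163) in the astrocyte line and -0.22 ± 0.13 (SE, adjusted p = 0.244) in the microglial line. The vesicular GABA transporter (Slc32a1) of inhibitory terminals had the smallest fall of the 3 in the astrocyte line, -1.02 ± 0.22 (SE, adjusted p = 0.00686), with 0.08 ± 0.10 (SE, adjusted p = 0.636) in the other. Without mouse 294 its astrocyte call was lost (adjusted p = 0.0576).

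The 4 genes of vesicle retrieval all fell in the astrocyte pulldown and none was called in the microglial pulldown. Dnm1 (chr2:32308471-32353304, minus strand), the neuronal dynamin that cuts endocytic vesicles from the membrane, was at 1308, 1247 and 1357 CPM in the negative fractions of mice 290, 293 and 294 and 285, 391 and 357 CPM in their positive fractions. All 3 mice dropped (log2 fold change -1.58 ± 0.16 SE, adjusted p = 0.000221). Cx3cr1-NuTRAP mice had Dnm1 at 1178 to 1385 CPM (median 1300) in the 6 negative fractions and 1021 to 1294 CPM (median 1153) in the 6 positive fractions, lower in 6 of 6 mice but overlapping (log2 fold change -0.15 ± 0.08 SE, adjusted p = 0.157). Synaptojanin (Synj1), endophilin (Sh3gl2) and amphiphysin (Amph), which shape and uncoat the vesicle, were at -1.32, -1.24 and -1.12 in the astrocyte line and at -0.11, -0.26 and -0.17 in the microglial line.

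The difference between the lines was tested directly, as the positive over negative change in Aldh1l1-NuTRAP mice minus that in Cx3cr1-NuTRAP mice. It was negative for 37 of 45 rows and positive for 1 at an adjusted p under 0.05 (edgeR), where 29.9% of 13983 genes were lower and 25.5% higher, with a median of -1.30 against -0.11 over all genes. The 5 most negative were Stx1a (log2 difference -1.76 ± 0.17 SE, adjusted p = 1.16e-07), Unc13a (log2 difference -1.69 ± 0.43 SE, adjusted p = 0.00299), Synpr (log2 difference -1.66 ± 0.16 SE, adjusted p = 9.10e-08), Napb (log2 difference -1.66 ± 0.18 SE, adjusted p = 3.37e-07) and Doc2a (log2 difference -1.64 ± 0.15 SE, adjusted p = 5.81e-08). Vamp3 was the row in the other direction (log2 difference 0.93 ± 0.14 SE, adjusted p = 1.53e-05). No call was made for Sv2c, Sypl, Snap23, Stx4a, the first Rims1 row, Rims2 and Rims3. Without mice 155 and 290 together, which stood apart, 38 rows were lower and 2 higher, Sypl joining Vamp3, with 29.3% and 27.6% of all genes. The mouse as a block gave the same counts, with 30.9% and 27.1% of all genes. Scaling by total counts moved the split over all genes from 3572 higher and 4179 lower to 2600 and 5719. Leaving out 1 mouse at a time gave 35 to 38 lower rows and 1 to 3 higher, with 25% to 28.6% and 22.7% to 26.4% of all genes.

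Of 20 neuron markers, none of them members, Map2 did not pass the count filter. The 19 tested all fell in the astrocyte pulldown (median -1.56), where 24.8% of all genes were lower. In the microglial pulldown 2 of 19 fell and 0 rose (median -0.12), where 11.6% of all genes were lower and 12.8% higher. The neuron markers summed to 13860 to 14906 CPM in the Aldh1l1-NuTRAP negative fractions and 3682 to 3920 CPM in the positive fractions, against 12667 to 13913 CPM and 12497 to 13154 CPM in the Cx3cr1-NuTRAP line. The members summed to 18782 to 20275 CPM and 5984 to 6585 CPM in the first line, and to 18409 to 20020 CPM and 15066 to 20443 CPM in the second. Oligodendrocyte markers had a median of -2.89 in the astrocyte pulldown (9 of 10 lower) and -0.75 in the microglial one (9 of 10 lower), microglia markers -2.35 in the former (12 of 12 lower), and astrocyte markers -0.46 in the latter (9 of 12 lower). Oligodendrocyte precursor markers were at -1.83 (6 of 6 lower) and -0.53 (4 of 6), and endothelial markers at -0.12 (0 of 7 called) and 0.35 (2 of 7 higher). None of these markers' part in the members' values was tested.

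**Figure D3:**
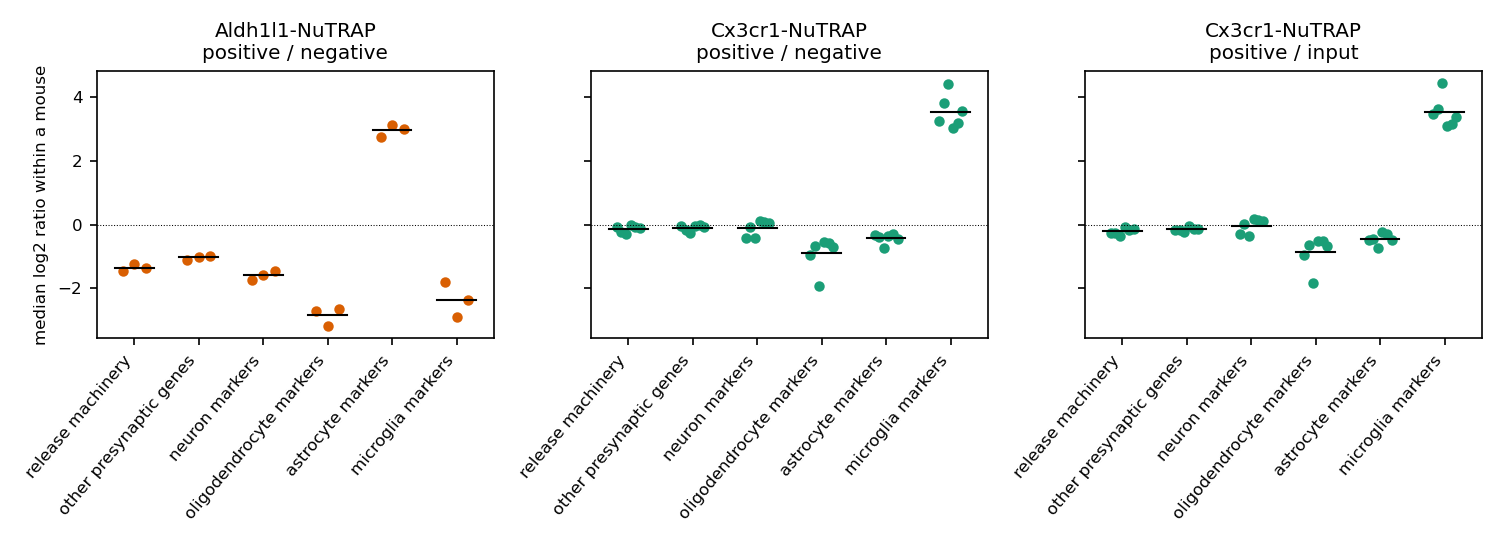
Median log2 ratio within each mouse (y axis; 1 point per mouse, line at the mean) for the release machinery, 57 other presynaptic genes and 4 cell type marker lists, in 3 Aldh1l1-NuTRAP mice (orange) and 6 Cx3cr1-NuTRAP mice (green). The release machinery lies between -1.47 and -1.25 in the astrocyte pulldown and between -0.30 and -0.01 in the microglial pulldown over the negative fraction.

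Within mice the pulldowns of the 2 lines did not overlap for these genes. The members' median log2 ratio of positive over negative fraction was -1.47, -1.25 and -1.37 in mice 290, 293 and 294. In the Cx3cr1-NuTRAP line it was -0.06, -0.23, -0.30, -0.01, -0.08 and -0.10 in mice 155, 192, 194, 209, 210 and 277. The highest astrocyte value was thus below the lowest microglial value. The microglia markers of mouse 194 had the highest ratio of the 6 mice (4.41, where the others were 3.05 to 3.83) and its members the lowest. The oligodendrocyte markers of that mouse were at -1.92, where the other 5 mice were between -0.96 and -0.54.

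Of 59 further presynaptic genes, chosen by function, 57 were tested, and 37 fell and 6 rose in the astrocyte pulldown (median -1.09), where 24.8% and 26.8% of all genes did. In the microglial pulldown 6 fell and 7 rose (median -0.08), near the 11.6% and 12.8% of all genes. The line difference was negative for 39 and positive for 5 (median -1.12), where 29.9% and 25.5% of all genes were. This list includes clathrin and adaptor subunits and other trafficking genes of many cell types. Within the release machinery itself, split by hand as above, the 40 rows of neuronal character had a median of -1.45 in the astrocyte line, 38 lower and 0 higher, and the 5 of broad expression had a median of 0.33, 2 higher and 1 lower. For these 5 the median depended on the scaling. Under total counts it was -0.02, with the same numbers called, and their summed CPM was lower in the positive fraction of each mouse (411, 348 and 350 against 435, 447 and 427 CPM in mice 290, 293 and 294).

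Compared with input in place of the negative fraction, the microglial positive fraction had more called rows. Here 18 of 45 rows were lower and 4 higher, where 25.6% of 13838 genes were lower and 23.3% higher, with a median of -0.21 against 0.00 over all genes. Without mouse 192 the lower rows were 10, with 18.8% of all genes. Without mouse 155 Sh3gl2 and Slc17a6 lost their calls and Syn3 and Doc2b were called lower, with 25.9% of all genes lower. Under the block for the mouse 21 rows were lower and 4 higher, with 23.9% and 19% of all genes, and Pclo lost its call and Syn2, Doc2b, Nsf and Sv2c gained one. The 4 that rose were Vamp3 (log2 fold change 0.31 ± 0.08 SE, adjusted p = 0.00427), Stx4a (log2 fold change 0.34 ± 0.08 SE, adjusted p = 0.00287), Cplx2 (log2 fold change 0.37 ± 0.07 SE, adjusted p = 0.000634) and Cplx3 (log2 fold change 0.61 ± 0.13 SE, adjusted p = 0.00176), each in 6 of 6 mice. Rims1 and Rims3 had the most negative values. Rims1 was at -1.11 ± 0.11 (SE, adjusted p = 3.25e-06) and -1.49 ± 0.13 (SE, adjusted p = 8.95e-07) on its 2 rows, Rims3 at -1.10 ± 0.13 (SE, adjusted p = 1.17e-05) and Rims2 at -0.53 ± 0.09 (SE, adjusted p = 0.000312), all with ranges that did not overlap. Sv2b was at -0.84 ± 0.12 (SE, adjusted p = 8.38e-05), and all 4 endocytosis genes fell, by 0.21 (Dnm1) to 0.35 (Amph) on the log2 scale. Of these, Sh3gl2 lost its call without mouse 155, 192, 194 or 277 (adjusted p from 0.0578 to 0.167) and Dnm1 without mouse 192, 194 or 210 (adjusted p from 0.0523 to 0.12). In the main fit no SNARE gene was called lower, and Syp (log2 fold change 0.01 ± 0.11 SE, adjusted p = 0.946), Rab3a (log2 fold change 0.07 ± 0.12 SE, adjusted p = 0.635) and Vamp2 (log2 fold change 0.04 ± 0.08 SE, adjusted p = 0.694) had no call. Snap25 was called lower in a joint fit of all 6 groups (-0.23, adjusted p = 0.0382) and without mouse 209 (-0.33, adjusted p = 0.0316). Stx1a was called lower under total counts (-0.22, adjusted p = 0.0438) and without mouse 209 (-0.26, adjusted p = 0.0421).

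The negative fraction was compared with input as well. In the unblocked test 1 of 45 rows, the second Rims1 row (log2 fold change -0.79 ± 0.17 SE, adjusted p = 0.0294), was lower and 0 were higher, where 4.7% of 13748 genes were lower and 1.41% higher. Over all genes 4376 had an unadjusted p under 0.05. DESeq2 gave 5 lower and 4 higher member rows, with 9.36% and 5.55% of all genes. With the mouse as a block 17 rows were lower and 10 higher, where 19.5% and 17.7% of all genes were. Without mouse 155, whose negative fraction stood apart, 14 were lower and 9 higher, where 14.8% and 12.8% of all genes were. Without any other single mouse 0 member rows and at most 3 of all genes were called. Small values could have 1 sign in every mouse. Syp was higher in the negative fraction of 6 of 6 mice (0.19 ± 0.08 SE), and Unc13a lower in 6 of 6 (-0.24 ± 0.12 SE).

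Against input, longer transcripts had lower values. Across the 45 member rows the Spearman correlation of the log2 fold change with summed exon length was -0.61 for negative fraction over input and -0.49 for positive fraction over input. Over all tested genes with a length (94.2%) it was -0.59 and -0.36. Leaving out each mouse in turn kept the members' value between -0.66 and -0.56 for the negative fraction and between -0.57 and -0.41 for the positive fraction. In the astrocyte pulldown it was -0.11 for the members and -0.21 over all genes, in the microglial pulldown over the negative fraction -0.27 and -0.11, and for the line difference -0.10 and -0.16. The points are genes that share the same libraries, so the values are descriptions. Length was not tested as a cause.

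**Figure D4:**
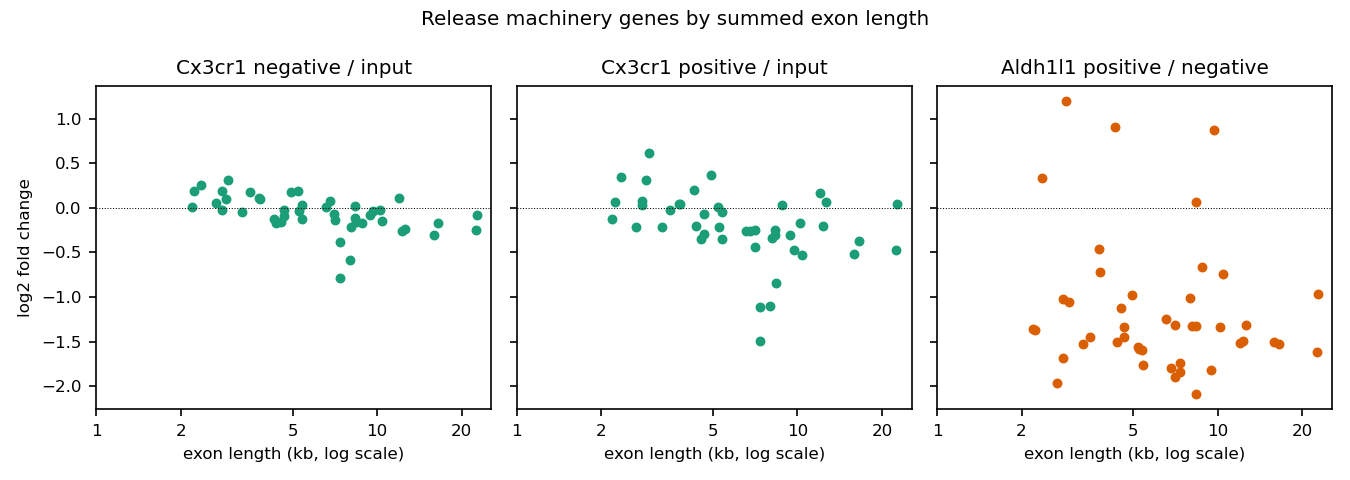
Log2 fold change of the 45 member rows (y axis) against summed exon length of the gene in kb (x axis, log scale) for the Cx3cr1-NuTRAP negative fraction over input, its positive fraction over input, and the Aldh1l1-NuTRAP positive over negative fraction. The first 2 panels slope down (Spearman -0.61 and -0.49), against -0.11 in the third.

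Whole tissue and input came from the same Cx3cr1-NuTRAP mice but differed in the balance of these genes. In input 17 of 45 rows were higher and 8 lower than in whole tissue, where 16.3% of 13608 genes were higher and 14.2% lower. With the mouse as a block 15 were higher and 4 lower, with 13.1% and 9.59% of all genes. A fit of all 6 groups, which share 1 estimate of the spread, left 8 higher and 5 lower, with 8.24% and 9.83% of all genes. It ended the calls of Snap23 (adjusted p = 0.119), Unc13a (0.353), Unc13b, Sh3gl2, Napa, Doc2b, Syn1, Rims2, Rims3, the first Rims1 row, Nsf and Sv2c. The higher rows were 10 without mouse 209, with 9.71% of all genes. The lower rows were 4 without mouse 194 and 5 without mouse 192 or mouse 209, with 8.66%, 10.7% and 9.29% of all genes. Without mouse 210, whose tissue stood apart, 18 were higher and 11 lower, with 19.4% and 19.4% of all genes. Some marker lists of other cell types moved as well. Endothelial markers had a median of -1.32 (7 of 7 lower) and summed to 104 to 121 CPM in input and 163 to 311 CPM in tissue. Oligodendrocyte markers had a median of -0.42 (9 of 10 lower) and summed to 4799 to 5524 CPM and 6649 to 9027 CPM. Precursor markers were at -0.34 (3 of 6 lower), astrocyte markers at -0.17 (4 of 12 lower) and microglia markers at -0.06 (0 of 12 called), while of 19 neuron markers 5 were higher and 6 lower. Their part in the members' values was not tested. The 2 glutamate transporters differed in opposite directions. Slc17a7 was at 874 to 1095 CPM (median 965) in the 6 inputs and at 495, 497, 389, 801 and 583 CPM in the whole tissue of mice 192, 194, 209, 210 and 277, a log2 difference, input over tissue, of 0.82 ± 0.14 (SE, adjusted p = 0.00119). Slc17a6 was at 96.4 to 138 CPM (median 120) in the inputs and at 277, 285, 326, 158 and 335 CPM in the 5 tissues, in the same order of mice, or -1.23 ± 0.15 (SE, adjusted p = 0.00014). Mouse 210 lay nearest to input for both. The ratio of Slc17a7 to Slc17a6 counts was 6.72 to 11.4 in the inputs, 5.08 in the tissue of mouse 210 and 1.19 to 1.79 in the other 4 tissues. The GABA transporter Slc32a1 was not called (log2 fold change -0.04 ± 0.07 SE, adjusted p = 0.682). The study's methods describe the whole-tissue RNA as isolated from brain by a conventional method. The labels give these libraries as whole tissue and their titles call them Slice, and neither the plane nor the part of the brain is stated for them. The methods describe a slice along the midline only for the protein samples of another experiment of the study, and whether these RNA samples were taken likewise is not stated in the sources used here.

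**Figure D5:**
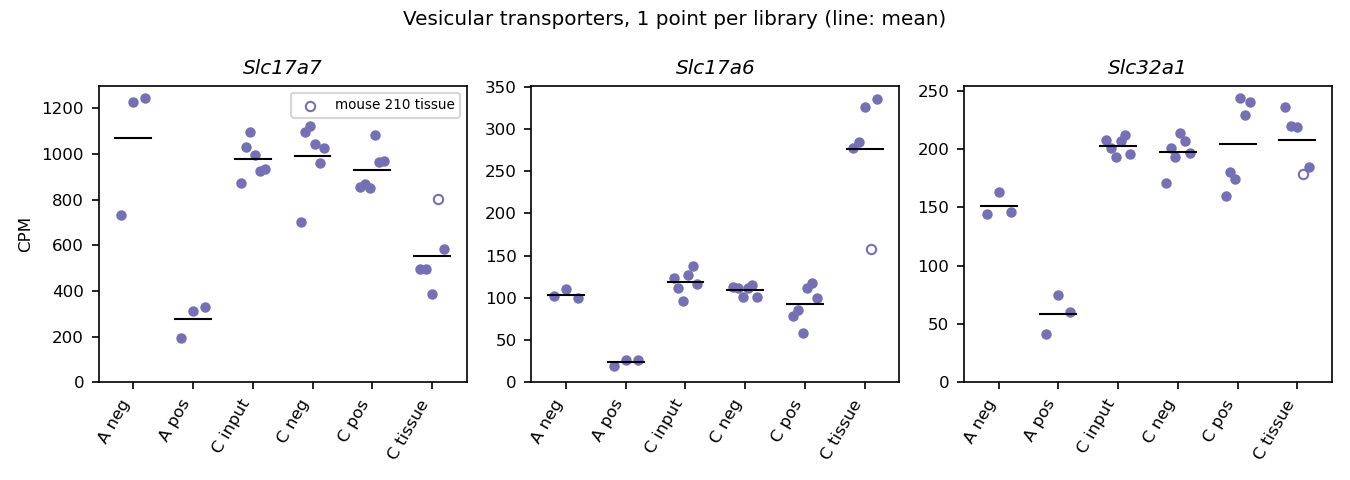
CPM of Slc17a7, Slc17a6 and Slc32a1 (y axes, from 0) in every library of the 6 groups, with a line at each group mean and the whole tissue of mouse 210 as an open circle. Whole tissue has 389 to 801 CPM of Slc17a7 and 158 to 335 CPM of Slc17a6, where input has 874 to 1095 and 96.4 to 138.

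Other members differed between input and tissue too. Unc13c, a Munc13 of cerebellar neurons (log2 fold change -0.93 ± 0.12 SE, adjusted p = 9.50e-05), Vamp1, the synaptobrevin of brainstem and spinal terminals (log2 fold change -0.65 ± 0.15 SE, adjusted p = 0.00534), and Sv2c (log2 fold change -0.82 ± 0.24 SE, adjusted p = 0.0223) were lower in input, and Synpr (log2 fold change 0.78 ± 0.07 SE, adjusted p = 1.15e-05), Rab3b (log2 fold change 0.50 ± 0.11 SE, adjusted p = 0.00433) and Sv2b (log2 fold change 0.37 ± 0.07 SE, adjusted p = 0.00109) were higher. Synpr was at 118 to 127 CPM (median 124) in the inputs and at 62, 67.3, 69.1, 82.1 and 78.4 CPM in the 5 tissues, in the same order of mice, with no overlap. Rab3b was at 50.4 to 59.9 CPM (median 55.2) in the inputs and at 32.1, 47, 30.6, 49.3 and 39.8 CPM in the 5 tissues, in the same order of mice, again with no overlap. Cplx2 was at 1404 to 1609 CPM (median 1447) in the inputs and at 946, 852, 859, 1416 and 954 CPM in the 5 tissues, in the same order of mice, where the tissue of mouse 210 fell among the inputs and the other 4 lay below them (log2 fold change 0.56 ± 0.11 SE, adjusted p = 0.00232). Cplx3 was at 9.87 to 12.6 CPM (median 11) in the inputs and at 5.42, 5.79, 5.2, 15.2 and 6.41 CPM in the 5 tissues, in the same order of mice (log2 fold change 0.69 ± 0.21 SE, adjusted p = 0.0245), where the tissue of mouse 210 lay above every input and the other 4 below them.

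Among the SNARE genes, Snap25 was at 2650 to 2978 CPM (median 2793) in the inputs and at 2657, 2189, 2518, 3005 and 2295 CPM in the 5 tissues, in the same order of mice, overlapping ranges (log2 fold change 0.14 ± 0.07 SE, adjusted p = 0.142). Vamp2 was at 1059 to 1191 CPM (median 1113) in the inputs and at 750, 868, 750, 1079 and 903 CPM in the 5 tissues, in the same order of mice (log2 fold change 0.36 ± 0.08 SE, adjusted p = 0.00469), higher in input with mouse 210 inside the input range. Stx1a was at 151 to 199 CPM (median 178) in the inputs and at 104, 116, 84.9, 134 and 153 CPM in the 5 tissues, in the same order of mice (log2 fold change 0.58 ± 0.13 SE, adjusted p = 0.00425), and among the tissues only that of mouse 277 reached the inputs' range. Snap23 was at 13.6 to 17.9 CPM (median 16.8) in the inputs and at 12.8, 13.5, 10.6, 15.6 and 12.2 CPM in the 5 tissues, in the same order of mice (log2 fold change 0.37 ± 0.11 SE, adjusted p = 0.0178). Vamp3 was at 32.5 to 46.3 CPM (median 39.1) in the inputs and at 36.9, 37.1, 38.8, 48 and 35.2 CPM in the 5 tissues, in the same order of mice, and Stx4a was at 60 to 73.4 CPM (median 69) in the inputs and at 74.2, 67.8, 75.8, 76.4 and 67.3 CPM in the 5 tissues, in the same order of mice. For these last 2 genes the ranges overlapped and no call was made (0.00 and -0.10).

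For the remaining genes with values in every library, Syp was at 1332 to 1559 CPM (median 1460) in the inputs and at 1295, 1350, 1285, 1548 and 1311 CPM in the 5 tissues, in the same order of mice, and Sypl was at 53.6 to 60 CPM (median 56) in the inputs and at 62, 55, 62.3, 59.7 and 58 CPM in the 5 tissues, in the same order of mice. Neither was called, and the tissue of mouse 210 had the highest Syp of its group. Napa was at 206 to 259 CPM (median 223) in the inputs and at 204, 192, 200, 210 and 203 CPM in the 5 tissues, in the same order of mice, slightly higher in input (log2 fold change 0.16 ± 0.06 SE, adjusted p = 0.0437), and Napb was at 435 to 514 CPM (median 482) in the inputs and at 546, 507, 540, 463 and 512 CPM in the 5 tissues, in the same order of mice, without a call (log2 fold change -0.11 ± 0.06 SE, adjusted p = 0.19). Doc2a was at 25.6 to 33.5 CPM (median 28.9) in the inputs and at 40.5, 38.5, 38.4, 37.6 and 48.8 CPM in the 5 tissues, in the same order of mice, lower in every input than in every tissue sample (log2 fold change -0.48 ± 0.09 SE, adjusted p = 0.00106). Rab3c was at 590 to 626 CPM (median 614) in the inputs and at 639, 788, 650, 730 and 719 CPM in the 5 tissues, in the same order of mice, also lower in input (log2 fold change -0.21 ± 0.06 SE, adjusted p = 0.0132), and Unc13a was at 256 to 366 CPM (median 333) in the inputs and at 258, 256, 230, 265 and 274 CPM in the 5 tissues, in the same order of mice, higher in input (log2 fold change 0.34 ± 0.09 SE, adjusted p = 0.00793). Dnm1 was at 1313 to 1367 CPM (median 1344) in the inputs and at 1316, 1217, 1260, 1188 and 1218 CPM in the 5 tissues, in the same order of mice, with no call (log2 fold change 0.11 ± 0.04 SE, adjusted p = 0.075). Sv2c, Rab3c, Napa and Cplx3 lost their calls with the mouse as a block, as did Nsf and Rims3. Rims3 also lost its call without mouse 155 (adjusted p = 0.0681). Without mouse 210, whose tissue stood apart, Syp (log2 fold change 0.17, adjusted p = 0.0183) and Snap25 (0.21, adjusted p = 0.0104) were called higher in input. Napb was called lower in input without that mouse (-0.17, adjusted p = 0.0314). Leaving out 1 mouse ended the call of Napa (without mouse 155, 192, 194, 209 or 277), Cplx3 (192, 194, 209 or 277), Sv2c (192, 194 or 209), Snap23 (192, 209 or 277), Rab3c (194 or 277) and Unc13a (209), at adjusted p from 0.0593 to 0.211.

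Against whole tissue the microglial positive fraction had 21 of 45 rows lower and 11 higher, where 24.3% of 13470 genes were lower and 27.5% higher. The extremes were Slc17a6 at -1.57 ± 0.19 (SE, adjusted p = 3.20e-05) and Rims3 at -1.53 ± 0.16 (SE, adjusted p = 8.61e-06) below, and Cplx3 at 1.26 ± 0.27 (SE, adjusted p = 0.00175) and Cplx2 at 0.94 ± 0.13 (SE, adjusted p = 7.04e-05) above. Without mouse 192 the higher rows were 6, with 18.7% of all genes. Blocking by mouse left 19 rows lower and 8 higher, with 21.4% and 21.8% of all genes, and Snap23, Stx1a, Stx4a, Rph3a and Syn3 lost their calls. Without mouse 210, whose tissue stood apart, 18 rows were lower and 10 higher, with 27% and 27.7% of all genes, and Pclo, Bsn, Rph3a, Napa and Stx4a lost their calls and Unc13b gained one. Oligodendrocyte markers had a median of -1.34 (10 of 10 lower), precursor markers -1.05 (6 of 6), endothelial markers -1.13 (5 of 7) and astrocyte markers -0.46 (10 of 12), and microglia markers 3.61 (12 of 12 higher). Their part in the members' values was not tested. This comparison shares its whole-tissue libraries with the previous one and its positive fractions with those before it.

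Placed beside each other, the positive fractions of the 2 lines were called different for 43 of 45 rows, and the negative fractions for 0. The Aldh1l1-NuTRAP positive fraction was lower than the Cx3cr1-NuTRAP positive fraction for 40 of 45 rows and higher for 3, where 33.1% of 13676 genes were lower and 30.6% higher (edgeR). The 3 were Vamp3 (log2 fold change 1.20 ± 0.11 SE, adjusted p = 3.10e-06), Sypl (log2 fold change 0.35 ± 0.12 SE, adjusted p = 0.0214) and Sv2c (log2 fold change 2.86 ± 0.71 SE, adjusted p = 0.00491). Scaling by total counts moved the split over all genes to 2875 higher and 6312 lower, from 4188 and 4530. Without mouse 290, 39 rows were lower and 2 higher. Sv2c rested on mouse 290, without which it was at 0.31 (adjusted p = 0.299), and Sypl was at 0.03 (adjusted p = 0.838) under total-count scaling and at 0.35 (adjusted p = 0.0528) without mouse 294. Between the negative fractions of the lines 0 of 45 rows were higher and 0 lower, where 0.125% of 13613 genes were higher and 0.125% lower. Without mouse 155, 1 row, Slc32a1, was lower, and without mouse 290 none was called. Of all genes 1827 had an unadjusted p under 0.05 there, and DESeq2 called 4 member rows higher (Synpr, Vamp2, Stx1a and Doc2a) and 2 lower (Slc32a1 and Unc13c) in the Aldh1l1-NuTRAP line, with 1.88% and 1.92% of all genes. The largest of these 6 in size was Stx1a, with a log2 difference of 0.36 in the edgeR fit.

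Levels of different genes were compared per kb of summed exon length. In input Snap25 led with 412 ± 16.5 CPM per kb (SD, n = 6), followed by Cplx1 with 380 ± 13.5, Cplx2 with 301 ± 17.4, Vamp2 with 294 ± 14.8 and Syp with 279 ± 20.4. Cplx2, Vamp2 and Syp lay within their spread of each other. At the other end stood Unc13b with 1.88 ± 0.214 CPM per kb, below Sv2c with 3.6 ± 0.825, Cplx3 with 3.73 ± 0.325 and Snap23 with 3.83 ± 0.392, and the last 3 lay within their spread of each other. In the Aldh1l1-NuTRAP negative fractions Snap25 with 391 ± 42.5, Cplx2 with 391 ± 59.7, Cplx1 with 371 ± 24, Syp with 371 ± 102 and Vamp2 with 356 ± 12.4 lay within their spread of each other (n = 3). In the positive fractions of that line Vamp2 was at 170 ± 6.71 CPM per kb, Cplx2 at 156 ± 35.7, Cplx1 at 114 ± 10.7, Syp at 99.2 ± 3.61 and Snap25 at 89.3 ± 11.5 (n = 3). Vamp2 and Cplx2 overlapped there, as did Cplx2 and Cplx1, and Syp and Snap25. In the Cx3cr1-NuTRAP positive fractions Snap25 stood at 342 ± 70.8 CPM per kb, with Cplx2 at 386 ± 35.1 and Cplx1 at 345 ± 44, all 3 within their spread. Vamp3 reached 30.6 ± 3.06 CPM per kb in the astrocyte pulldown, against 17 ± 1.24 in its negative fraction. Syn2 was at 22.4 ± 6.7 and 70.8 ± 17 CPM per kb in the same 2 fractions. The Vamp3 and Syn2 levels lay within their spread in the pulldown and apart in the negative fraction.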

How the data were processed

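RNA-seq was analysed in 29 libraries of 6 groups. Per the labels and the study's methods, the authors prepared stranded polyA libraries, aligned reads to mm10 in Strand NGS 3.1, and quantified RefSeq genes; the submitters' processing notes name DESeq. The deposited table holds expected counts per gene and DESeq-normalized log2 values by the authors, which were not used. Of nonzero expected counts 82.8% were not whole, so they were rounded. A gene was kept if its count exceeded 20 throughout 1 of the groups compared. Differences were tested with edgeR 4.0.16 (R 4.3.3; TMM scaling, quasi-likelihood test) and Benjamini-Hochberg adjustment over all genes tested, at 0.05, and DESeq2 1.42.0 was an alternative. Scripts were tested on simulated data. CPM and figures came from Python 3.11.15, pandas 2.3.3 and matplotlib 3.10.9. Total counts were 4260949 to 26857866 per library.

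Groups came from the sample titles and mice are the replicates. Same-numbered fractions came from 1 mouse, and the deviations of same-numbered libraries had a correlation over 0.1 for all 3 Aldh1l1-NuTRAP mice (0.484 to 0.692), for 3 of 6 pairs of Cx3cr1-NuTRAP positive and negative fractions, 3 of 6 of positive fractions and inputs, 5 of 6 of negative fractions and inputs, and 0 of 5 of positive fractions or inputs with whole tissue. The test without the block is the main one, and the blocked one is given beside results it changes. Alternatives were total counts, other size factors, no filter, all groups in 1 fit, the block, and leaving out each mouse. The members and gene lists were chosen with earlier results of these data known. Genes given with values in every library were the member of each role with the highest mean CPM in input, the 5 broadly expressed members and their neuronal paralogues, the 5 with the largest called line difference in size, and any called higher in a positive fraction, 19 in all; others singled out were chosen after their values were seen. Aldh1l1-NuTRAP input and whole tissue were not analysed here.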

Additional observations from a re-analysis of the deposited data

Results flagged for a closer look

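In a test for a sample far from the others of its group (Dixon's test in the 4 Cx3cr1-NuTRAP groups of 5 or 6 samples, 76 sets of values for the 19 genes with values in every library and 4 for the summed members), 8 of the 80 sets stood out, where chance flags about 1 in 20. The whole tissue of mouse 210 was the highest of its group for Syp (1548 CPM, the other 4 between 1285 and 1350), Cplx2 (1416 CPM, the others 852 to 954), Cplx3 (15.2 CPM, the others 5.2 to 6.41) and Vamp3 (48 CPM, the others 35.2 to 38.8). The negative fraction of mouse 155 was the highest for Rab3c (789 CPM, the others 609 to 643) and for Stx4a (108 CPM, the others 70.9 to 77.7). Doc2a was low in the negative fraction of mouse 210 (29.5 CPM, the others 33.2 to 35) and high in the whole tissue of mouse 277 (48.8 CPM, the others 37.6 to 40.5).

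The change from negative to positive fraction was called different between the lines for 16 of these genes, by the edgeR test of the difference itself, where 29.9% of all genes tested were lower and 25.5% higher. Stx1a, Napb, Unc13a, Synpr and Doc2a were among them because they had been chosen for the size of this difference, so the number is partly fixed by the choice and the values are given as a description. The log2 difference, Aldh1l1-NuTRAP minus Cx3cr1-NuTRAP, was -1.44 for Syp and -1.66 for Synpr among vesicle membrane proteins. Among SNARE genes it was -1.51 for Snap25, -1.76 for Stx1a, -0.73 for Vamp2 and 0.93 for Vamp3. The regulators were at -1.23 for Cplx2, -1.43 for Cplx3, -1.64 for Doc2a, -0.46 for Napa and -1.66 for Napb. At the active zone Unc13a was at -1.69, Rab3b at -1.30 and Rab3c at -1.63, and Slc17a7 was at -1.57 and Dnm1 at -1.47. Without mouse 294 the call for Napa was lost (-0.34, adjusted p = 0.0708 by edgeR).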

How the results depend on the processing

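Under the alternatives run, no called member changed direction. Scaling by total counts moved the median of the members to -1.71 for Aldh1l1-NuTRAP positive over negative fraction, -1.60 between the positive fractions and -1.58 for the line difference, and the mean in place of the median gave -1.03 and -1.08 for the last 2. Leaving out 1 mouse at a time gave 1 to 2 higher and 25 to 40 lower rows in the Aldh1l1-NuTRAP pulldown. In the Cx3cr1-NuTRAP pulldown it gave 0 to 2 higher and 1 to 8 lower over the negative fraction, 10 to 18 lower over input, and 6 to 11 higher over whole tissue. Negative fraction over input gave 0 to 9 higher and 0 to 14 lower, input over whole tissue 10 to 18 higher (10 without mouse 209) and 4 to 11 lower (4 without mouse 194, 5 without mouse 192 or 209), the negative fractions of the lines 0 to 1 lower (Slc32a1 without mouse 155), and the line difference 1 to 3 higher. In what follows the share of all genes stands in parentheses. DESeq2 called 10 rows lower for the Cx3cr1-NuTRAP positive over negative fraction (14.3%), and 4 higher (5.55%) and 5 lower (9.36%) for negative fraction over input. It called 4 higher (1.88%) and 2 lower (1.92%) between the negative fractions, and 2 higher for the line difference (28%). Size factors of DESeq2 in edgeR (26.9%) and the fit without mice 155 and 290 (27.6%), added after seeing the data, also gave 2 higher for the line difference. Without a filter on low counts 0 rows were higher for the Cx3cr1-NuTRAP positive over negative fraction (7.44%), 0 lower for negative fraction over input (1.08%) and 5 lower for input over whole tissue (7.82%). Total counts left 1 higher for the Cx3cr1-NuTRAP positive over negative fraction (12%). A fit of all 6 groups gave 0 lower for negative fraction over input (0.429%), 8 higher (8.24%) and 5 lower (9.83%) for input over whole tissue, and 3 higher for the line difference (30.6%). With the mouse as a replicate block the higher rows were 4 in the Aldh1l1-NuTRAP pulldown, 0 in the Cx3cr1-NuTRAP pulldown over the negative fraction, 10 for negative fraction over input (17 lower) and 2 for the line difference, and 4 rows were lower for input over whole tissue. Over input the block gave 4 higher and 21 lower rows, and over whole tissue 8 and 19. The cause of these shifts was not tested. Depth limits the whole tissue of mouse 210 most, at 4260949 counts.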
